A study of Homo sapiens with 6 samples.

Results

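Mucin genes encode large glycoproteins that coat epithelial surfaces, and 10 of them (MUC1, MUC2, MUC3A, MUC4, MUC5AC, MUC5B, MUC13, MUC16, MUC17 and MUC20) were chosen by symbol from the 19402 genes of the count table. All 10 were found, and 8 were counted deeply enough to be tested. Poly(A)-selected RNA was sequenced from CFPAC1, an established human pancreatic ductal adenocarcinoma line. The IRF1-KO group held 3 pools of clones isolated after infection with the lentiviral CRISPR vector carrying wild-type Cas9 and a guide RNA against IRF1, an interferon-induced transcription factor. The WT group held 3 pools of clones isolated in the same way after infection with that vector, for which no guide is named. Cells of both groups were grown in the same medium, and no interferon treatment is given for them. Each library is thus a mixture of clones of 1 cell line. The series text also names other cell lines and an interferon treatment, which were not analysed here.

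Mucins carry dense O-linked sugars on serine and threonine residues, which lie in repeated stretches of the protein. Secreted gel-forming mucins (MUC2, MUC5AC and MUC5B) build mucus. Transmembrane mucins (MUC1, MUC3A, MUC4, MUC13, MUC16, MUC17 and MUC20) stay at the cell surface, where they form a barrier and, in several cases, take part in signalling. In pancreatic ductal cancer MUC1, MUC4, MUC5AC and MUC16 are well known as tumour-associated mucins, and shed MUC16 carries the serum marker CA125.

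The repeats are shown first because they are what makes these genes mucins and because reads that fall inside them can align to several places. The GENCODE 29 transcripts (GRCh38) of MUC1, MUC4, MUC5AC and MUC20 each held a unit repeated in frame, with 11 or more copies at 80% of bases. A MUC3A unit of 51 bases had only 2 copies and is not shown. One copy of the unit is printed for each, from 5′ to 3′ along the transcript, with the codons for serine and threonine in capitals.
MUC1: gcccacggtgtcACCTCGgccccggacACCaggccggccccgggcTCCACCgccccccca
MUC4: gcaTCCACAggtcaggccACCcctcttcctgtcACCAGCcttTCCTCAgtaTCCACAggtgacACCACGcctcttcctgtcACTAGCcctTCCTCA
MUC5AC: gctcctACAACCAGCACAACCTCT
MUC20: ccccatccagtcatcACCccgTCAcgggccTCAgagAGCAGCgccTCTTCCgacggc

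The MUC1 unit spanned 60 bases in exon 2 of 11 (chr1:155191820-155191879, minus strand) and had 5 serine or threonine codons among 20. It occurred in 19 identical copies, and 43 copies matched it at 80% of bases or more. The MUC4 unit of 96 bases lay in exon 2 of 25 (chr3:195788004-195788099, minus strand), with 15 such codons among 32 and 102 copies at 80% of bases. The second part of the printed MUC4 unit resembles the first, so the unit holds more than 1 copy of a shorter, less exact repeat. The MUC5AC unit was the shortest of these at 24 bases, in exon 31 of 49 (chr11:1185244-1185267, plus strand). It had 6 such codons among 8 and 172 copies at 80% of bases. The MUC20 unit of 57 bases stood in exon 1 of 3 (chr3:195725150-195725206, plus strand), with 7 such codons among 19 and 11 copies at 80% of bases. A read of 30 bases drawn from the longest coding transcript would match more than 1 place in that transcript for 48.6% of positions in MUC1 and 42.6% in MUC4. The share was 36.8% in MUC5B, 31.6% in MUC5AC, 24.3% in MUC17, 21.0% in MUC20, 8.51% in MUC3A, 3.86% in MUC16 and 1.33% in MUC13. The repeats of MUC2 were not assessed, because its longest coding transcript here had only 393 bases, against 12667 exon bases of the counted gene. How reads with several matches were counted is not given in the sources used here. Counts of MUC1, MUC3A, MUC4, MUC5AC, MUC5B, MUC17 and MUC20 are therefore uncertain, in all libraries alike as far as the sources show. The shares above are for 30 bases within 1 transcript and do not measure the size of that uncertainty. Repeat number also differs between people and cell lines, and the units above are those of the reference genome.

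Total counts ranged from 16413682 to 28258075 per library. IRF1 itself had 117, 123 and 132 CPM (counts scaled to library size by TMM) in IRF1-KO replicates 1 to 3, and 87.3, 91.3 and 82.6 CPM in WT replicates 1 to 3. The IRF1 transcript was thus no lower in IRF1-KO pools (log2 fold change 0.51 ± 0.10 SE; edgeR quasi-likelihood, Benjamini-Hochberg adjusted p = 0.135). Because Cas9 lesions are often small, a count over every exon is no check of the deletion, and each direction below is that of the labels. The 9 ductal epithelial markers summed to 5118 to 7354 CPM in IRF1-KO and 4358 to 7518 CPM in WT, with WT replicate 3 at the lowest sum. KRT8 and KRT19 were the most abundant of them, and CFTR was at 0.66 CPM or less in every library. Of the markers of other cell types, INS, SST and CPA1 had no count in any library. Endothelial markers summed to 3.08 CPM at most. CD68 made up nearly all of the leukocyte sum of 129 to 155 CPM in IRF1-KO and 127 to 186 CPM in WT, and COL1A1 nearly all of the fibroblast sum of 34.3 to 75.3 CPM in IRF1-KO and 26.6 to 49.2 CPM in WT.

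No mucin gene passed the threshold between IRF1-KO and WT pools over all tested genes. The transmembrane mucins MUC13 and MUC16 were lower in every IRF1-KO pool than in every WT pool, and the gel-forming mucin MUC5AC had higher values in IRF1-KO pools than in WT replicates 1 and 2. MUC5AC, for which WT replicate 3 lay inside the IRF1-KO range, and the other 5 tested genes overlapped between groups. MUC1 was the mirror of MUC5AC, with WT replicates 1 and 2 above all IRF1-KO pools and WT replicate 3 inside their range. In edgeR's quasi-likelihood test 0 of 8 tested mucin genes were called at an adjusted p of 0.05, against 0.127% of all 13388 tested genes. At an unadjusted p of 0.05, 2 were lower and 0 were higher, against 3.75% lower and 5.39% higher of all tested genes. Groups without overlap were found for 2 genes lower and 0 higher in IRF1-KO, against 6.75% and 8.03% of all tested genes. DESeq2, run as an alternative, called 2 mucin genes lower (MUC13 and MUC16), against 0.915% of the genes to which it gave an adjusted p. Of the 8 genes, 7 had a negative log2 fold change, as did 53.3% of all tested genes. Their median was −0.86, against −0.02 over all tested genes. These 8 genes share libraries and in part a locus, so they are not independent.

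**Figure D1:**
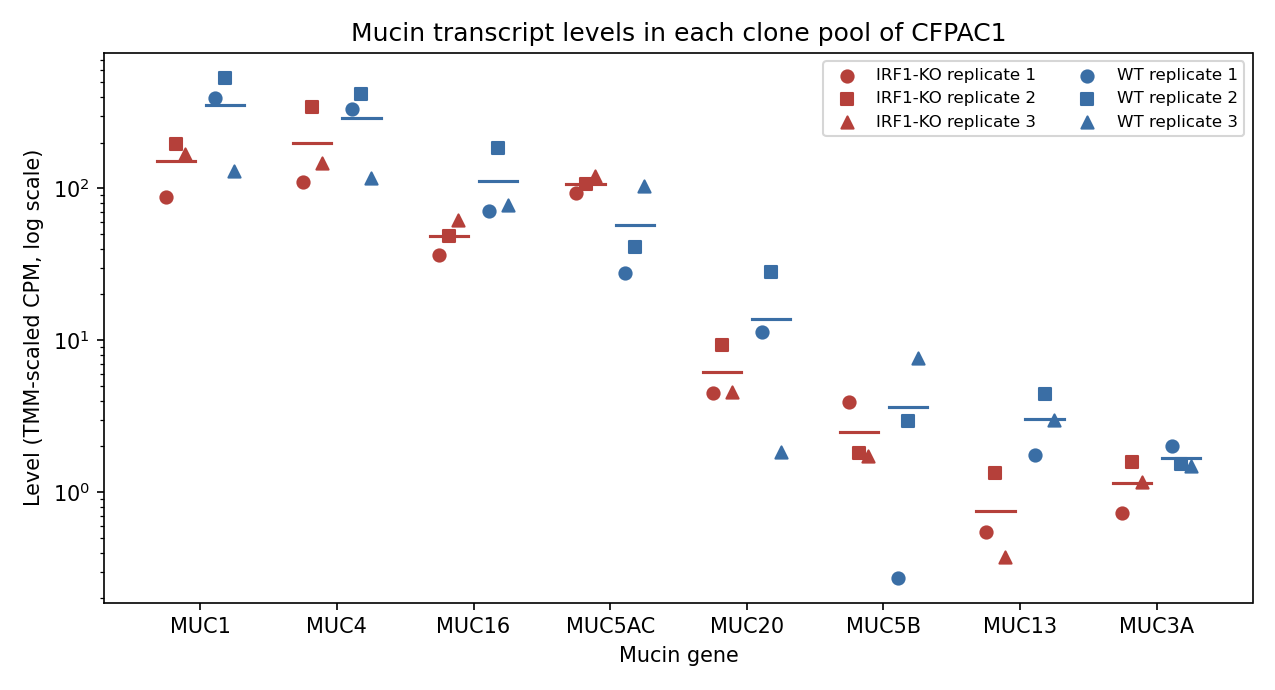
Level of each tested mucin gene (TMM-scaled CPM, log axis) in every library, IRF1-KO pools in red and WT pools in blue, with the symbol shape giving the replicate and a bar giving the group mean. MUC13 and MUC16 separate by group, while WT replicate 3 lies near the IRF1-KO pools for MUC1, MUC4 and MUC5AC.

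The levels of the 10 genes spanned a wide range, and MUC1 led in both groups. Per length of exon, MUC1 stood at 32.0 ± 11.9 CPM per kilobase in IRF1-KO and 74.8 ± 43.3 CPM per kilobase in WT (SD, n = 3 each). MUC4 came next, at 9.48 ± 5.88 CPM per kilobase in IRF1-KO and 13.8 ± 7.36 CPM per kilobase in WT. MUC1 and MUC4 did not overlap within either group. MUC5AC followed, at 6.08 ± 0.782 CPM per kilobase in IRF1-KO and 3.30 ± 2.33 CPM per kilobase in WT, and overlapped MUC4 in both groups. Below it stood MUC16 (1.11 ± 0.288 in IRF1-KO and 2.53 ± 1.46 CPM per kilobase in WT) and MUC20 (0.897 ± 0.404 in IRF1-KO and 2.00 ± 1.93 CPM per kilobase in WT), which overlapped each other in both groups. MUC5AC and MUC16 were separate in IRF1-KO but overlapped in WT. MUC13, MUC5B and MUC3A were each under 1 CPM per kilobase in both group means. The order of means was the same in IRF1-KO and WT pools.

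MUC2 and MUC17 were at or near the limit of detection. MUC2, the main gel-forming mucin of the intestine (ENSG00000198788.8; chromosome 11, 1074875 to 1110511, plus strand), had 0, 11 and 2 counts in IRF1-KO replicates 1 to 3 and 7, 6 and 5 counts in WT replicates 1 to 3. The groups overlapped, and the gene was too low to be tested. MUC17, a transmembrane mucin of the intestinal brush border (ENSG00000169876.13; chromosome 7, 101020072 to 101058745, plus strand), had 1 count in all, in IRF1-KO replicate 2. A count of 0 allows up to 3 counts, which for MUC17 was 0.183 CPM in IRF1-KO replicate 1, 0.112 CPM in IRF1-KO replicate 3 and 0.144 to 0.164 CPM in WT libraries, for counting error only.

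MUC13, a short transmembrane mucin of the gastrointestinal tract that bears domains related to epidermal growth factor (ENSG00000173702.7; GRCh38 chromosome 3, 124905442 to 124953819, minus strand), was low in all pools. It had 9, 38 and 10 counts in IRF1-KO replicates 1 to 3 and 32, 81 and 62 counts in WT replicates 1 to 3. Scaled to depth these were 0.549, 1.33 and 0.375 CPM in IRF1-KO and 1.75, 4.41 and 2.98 CPM in WT. Every IRF1-KO pool was below every WT pool, with IRF1-KO replicate 2 closest to WT replicate 1. The log2 fold change was −1.99 ± 0.56 (SE), a ratio of 0.252, with an edgeR adjusted p of 0.290 and an unadjusted p of 0.00788. DESeq2 gave −2.00 with an adjusted p of 0.0469. Over the 14 alternatives the log2 fold change lay between −2.73 and −1.63 and the adjusted p between 0.0469 and 0.710.

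MUC16, the very large transmembrane mucin that carries CA125 (ENSG00000181143.15; chromosome 19, 8848844 to 8981342, minus strand), was counted more deeply. It had 36.2, 48.8 and 61.5 CPM in IRF1-KO replicates 1 to 3 and 70.6, 185 and 77.4 CPM in WT replicates 1 to 3. The groups did not overlap, but IRF1-KO replicate 3 and WT replicate 1 were close and WT replicate 2 stood above the other 5 pools. The log2 fold change of MUC16 was −1.18 ± 0.40 (SE; edgeR adjusted p = 0.414, unadjusted p = 0.0219). DESeq2 gave an adjusted p of 0.0401. Without WT replicate 2 the edgeR value was −0.60 (adjusted p = 0.706).

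For MUC1 and MUC4, the most abundant transmembrane mucins here, the highest and lowest WT pools lay further apart (4.07-fold and 3.56-fold) than the group means. MUC1, whose cytoplasmic tail binds signalling proteins such as beta-catenin (ENSG00000185499.16; chromosome 1, 155185824 to 155192916, minus strand), had 88.3, 197 and 167 CPM in IRF1-KO replicates 1 to 3. In WT replicates 1 to 3 it had 396, 532 and 131 CPM. WT replicates 1 and 2 lay above all IRF1-KO pools, whereas WT replicate 3 lay inside their range. Its log2 fold change was −1.22 ± 0.53 (SE; edgeR adjusted p = 0.553). It was −0.80 without WT replicate 2 (edgeR adjusted p = 0.939) and −1.60 without WT replicate 3 (edgeR adjusted p = 0.0902). Its transcript was 71.2% GC, and the 477 tested genes above 65% GC had a median of 0.52, opposite in sign. With a correction for GC content the value of MUC1 was −2.32 ± 0.59 (adjusted p = 0.385). The origin of the GC trend was not tested.

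MUC4, which is known to bind the receptor ERBB2 (ENSG00000145113.22; chromosome 3, 195746765 to 195811973, minus strand), had 111, 341 and 147 CPM in IRF1-KO replicates 1 to 3 and 333, 418 and 117 CPM in WT replicates 1 to 3. IRF1-KO replicate 2 was level with WT replicate 1, and WT replicate 3 was within the IRF1-KO range. MUC4 had a log2 fold change of −0.54 ± 0.57 (SE; edgeR adjusted p = 0.852), which ranged over the fits without 1 library between −1.17 (without IRF1-KO replicate 2) and −0.17 (without WT replicate 2).

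MUC20, a transmembrane mucin known to bind the receptor MET (ENSG00000176945.17; chromosome 3, 195720884 to 195741123, plus strand), lies beside MUC4, is read towards it and ends 5641 bases from the end of MUC4. It had 4.51, 9.32 and 4.57 CPM in IRF1-KO replicates 1 to 3 and 11.3, 28.0 and 1.83 CPM in WT replicates 1 to 3. The lowest and the highest value were both in WT pools, which differed 15.3-fold, against 2.07-fold among IRF1-KO pools. MUC20 had a log2 fold change of −1.15 ± 0.84 (SE; edgeR adjusted p = 0.777), and −0.09 without WT replicate 2. In GENCODE 29, 1851 of its exon bases also belong to the non-coding gene MUC20-OT1 on the same strand, whose reads cannot be told apart there. MUC3A, an intestinal transmembrane mucin (ENSG00000169894.18; chromosome 7, 100949534 to 100968347, plus strand), had 0.732, 1.57 and 1.16 CPM in IRF1-KO and 2.02, 1.52 and 1.49 CPM in WT. IRF1-KO replicate 2 lay above 2 of the WT pools (log2 fold change −0.52 ± 0.38 SE; edgeR adjusted p = 0.771). Leaving out IRF1-KO replicate 1 gave −0.27, and leaving out IRF1-KO replicate 2 gave −0.81. MUC3A shares sequence with the near-identical gene MUC3B, which has no row of that name here, and its value is uncertain.

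**Figure D2:**
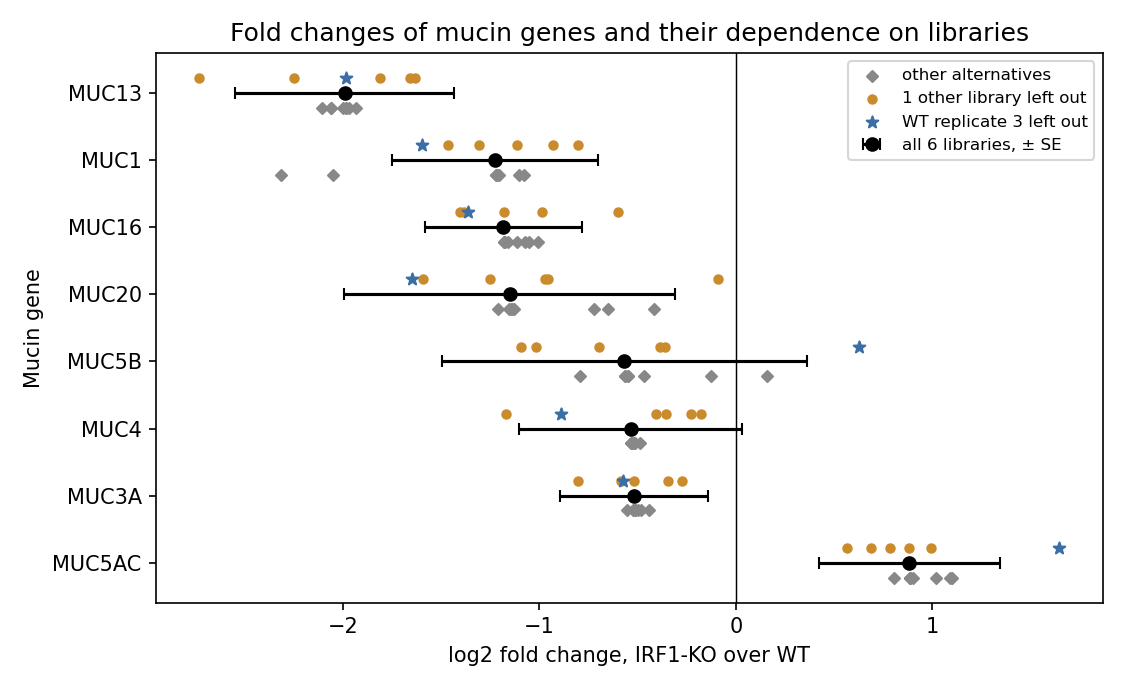
Log2 fold change of each tested mucin gene, IRF1-KO over WT (x axis), with all 6 libraries (black, ± SE), with 1 library left out (above) and under the other alternatives (below). MUC5AC moved to 1.65 and MUC5B turned to 0.63 without WT replicate 3, while MUC13 stayed at −1.63 or lower in all 14 alternatives.

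Among gel-forming mucins, MUC5AC, the mucin of gastric surface and airway goblet cells that ductal precursor lesions also express (ENSG00000215182.8; chromosome 11, 1157953 to 1201138, plus strand), had the only positive log2 fold change of the 8 genes. It had 92.4, 106 and 120 CPM in IRF1-KO replicates 1 to 3 and 27.5, 41.3 and 104 CPM in WT replicates 1 to 3. The IRF1-KO pools lay within 1.30-fold of each other, whereas WT pools differed 3.77-fold and WT replicate 3 lay inside the IRF1-KO range. MUC5AC thus had a log2 fold change of 0.88 ± 0.46 (SE; edgeR adjusted p = 0.657). Without WT replicate 3 it was 1.65 ± 0.21 (edgeR adjusted p = 0.0409), the only alternative of 14 in which edgeR called a mucin gene. Without WT replicate 1 it was 0.57 ± 0.38 (edgeR adjusted p = 0.678). With WT replicate 3 left out 91 genes were called in all, against 17 with all 6 libraries.

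MUC5B, the other gel-forming mucin with a measurable level (ENSG00000117983.17; chromosome 11, 1223066 to 1262172, plus strand), lies 21927 bases beyond MUC5AC on the same strand. It had 64, 52 and 46 counts in IRF1-KO replicates 1 to 3 and 5, 54 and 159 counts in WT replicates 1 to 3. In CPM these were 3.90, 1.82 and 1.72 in IRF1-KO and 0.274, 2.94 and 7.64 in WT. The WT pools differed 27.9-fold and enclosed all IRF1-KO pools. MUC5B had a log2 fold change of −0.57 ± 0.93 (SE; edgeR adjusted p = 0.911). It turned to 0.63 without WT replicate 3 and to 0.16 with limma-voom. The antisense gene MUC5B-AS1 shares 434 of its exon bases, and strand use in counting is not given.

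The spread between pools of the same kind was wide for most mucin genes, and wider in WT than in IRF1-KO pools for 6 of the 8 tested genes. The median tested gene had an SD of log2 CPM of 0.181 among IRF1-KO pools and 0.208 among WT pools. MUC5B had an SD of 0.64 in IRF1-KO and 2.25 in WT, and its WT value exceeded that of 99.7% of tested genes. MUC20 had an SD of 0.59 in IRF1-KO and 1.97 in WT. MUC1 was at 0.61 in IRF1-KO and 1.07 in WT, and MUC4 at 0.84 in IRF1-KO and 0.98 in WT, and their values exceeded those of at least 92.8% of tested genes in each group. MUC5AC had an SD of 0.19 in IRF1-KO and 0.98 in WT, and MUC16 one of 0.38 in IRF1-KO and 0.77 in WT. MUC13 went the other way, at 0.83 in IRF1-KO and 0.65 in WT. So did MUC3A, the narrowest in WT, at 0.51 in IRF1-KO and 0.23 in WT. MUC13, MUC3A and MUC5B had low counts, at which counting error is larger. Whether the difference in spread between groups exceeds chance was not tested. The share of all tested genes with a wider spread in WT was not counted.

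The make-up of mucin reads also differed between pools. The 10 genes summed to 337, 707 and 503 CPM in IRF1-KO replicates 1 to 3 and to 842, 1213 and 443 CPM in WT replicates 1 to 3. The 3 pools with the lowest mucin sum, IRF1-KO replicates 1 and 3 and WT replicate 3, were also the 3 with the lowest ductal marker sum, at 5118, 6041 and 4358 CPM. In such bulk samples fewer cells with a transcript and less of it per cell cannot be told apart. MUC5AC made up 27.4%, 15.0% and 23.8% of mucin reads in IRF1-KO replicates 1 to 3 and 3.27%, 3.40% and 23.4% in WT replicates 1 to 3. Set against MUC1, MUC5AC reads stood at ratios of 1.05, 0.540 and 0.715 in IRF1-KO pools and 0.0696, 0.0776 and 0.795 in WT pools. WT replicate 3 was thus like the IRF1-KO pools in this ratio and unlike the other WT pools.

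**Figure D3:**
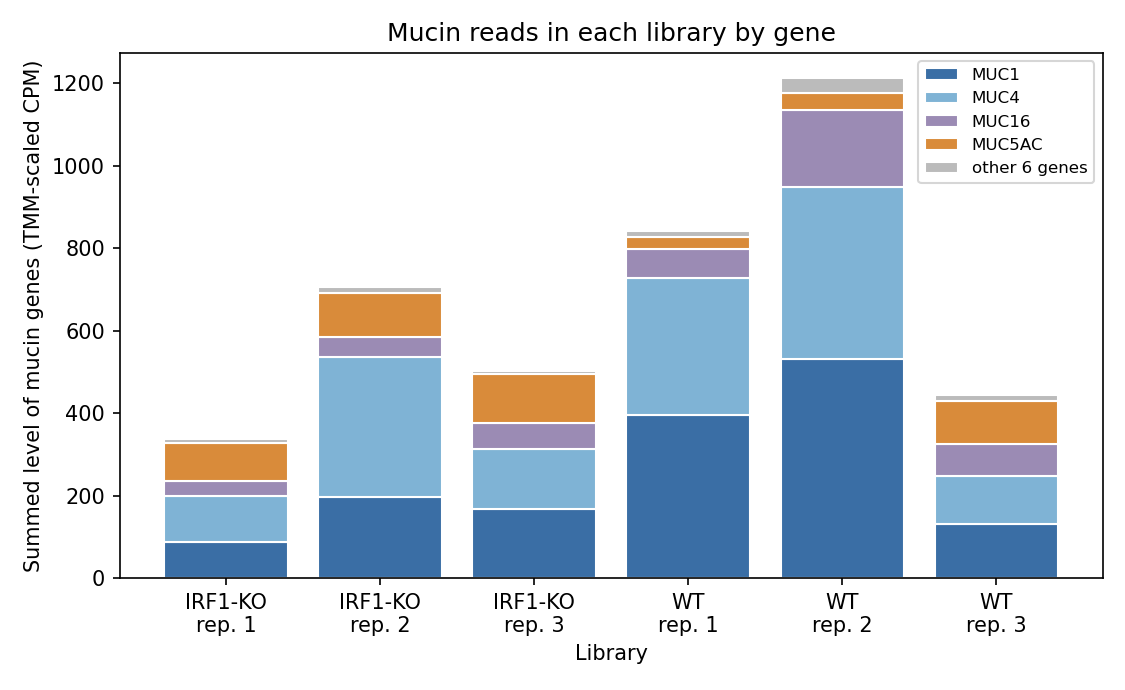
Summed TMM-scaled CPM of the 10 mucin genes in each library, split by gene, IRF1-KO pools on the left and WT pools on the right. WT replicates 1 and 2 have the largest sums (842 and 1213 CPM) and the smallest MUC5AC portions, and WT replicate 3 (443 CPM) has a MUC5AC share of 23.4%.

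Among the ductal markers, CDH1, which encodes E-cadherin, had 279, 422 and 239 CPM in IRF1-KO replicates 1 to 3 and 499, 378 and 107 CPM in WT replicates 1 to 3. KRT7, a ductal keratin, had 316, 777 and 336 CPM in IRF1-KO and 508, 480 and 157 CPM in WT. For both genes WT replicate 3 was the lowest WT pool and IRF1-KO replicate 2 the highest IRF1-KO pool, as for MUC1, MUC4 and MUC20. These genes were named after their values were seen, and their part in the mucin values was not tested.

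Profiles over the 6 libraries were compared by the root mean square difference of centred log2 CPM, where 0 means the same profile. Over the 28 pairs of tested mucin genes the median was 1.07. The closest pair was MUC1 and MUC4 at 0.403, and the neighbours MUC4 and MUC20 were at 0.614. The neighbours MUC5AC and MUC5B were at 1.04, near the median, and the most distant pair was MUC5B and MUC20 at 2.21. Over all tested genes the profiles nearest to MUC1 were those of TMPRSS3, a transmembrane serine protease (0.176), FBXO24, an F-box protein (0.235), and CDK18, a cyclin-dependent kinase (0.241). Nearest to MUC13 were EPSTI1 (0.235) and IFI27 (0.254), known as interferon-induced genes, and DDX60 (0.325), a helicase of antiviral defence. EPSTI1 deviated from its mean by −1.55, −0.30 and −1.68 in IRF1-KO replicates 1 to 3 and by 0.50, 1.62 and 1.40 in WT replicates 1 to 3. MUC13 deviated by −1.21, −0.07 and −1.67 in IRF1-KO and by 0.31, 1.60 and 1.05 in WT. In both genes IRF1-KO replicate 2 was the highest IRF1-KO pool and WT replicate 1 the lowest WT pool. The nearest genes were picked on these same 6 libraries, so this likeness follows from the choice and is no separate result. The MUC13 profile rests on 9 to 81 counts per library.

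**Figure D4:**
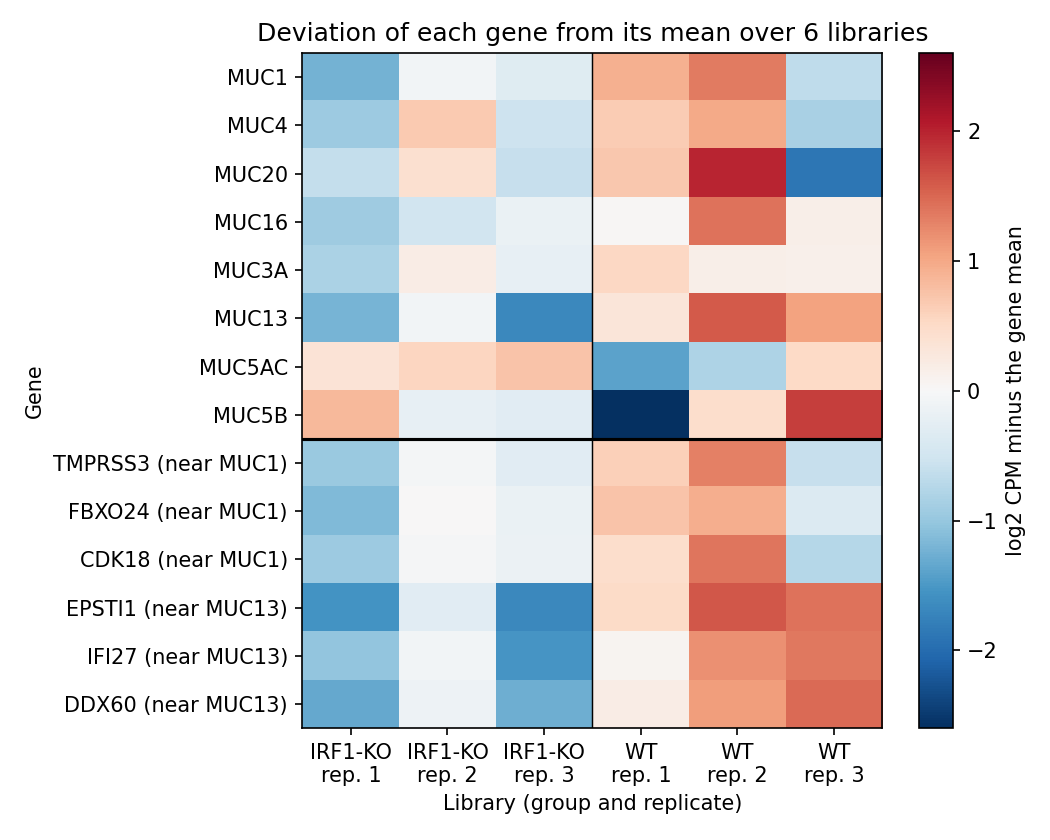
Deviation of log2 CPM from each gene's mean over the 6 libraries (colour), for the 8 tested mucin genes and the 3 tested genes nearest to MUC1 and to MUC13, IRF1-KO pools on the left and WT pools on the right. MUC1, MUC4 and MUC20 are high in WT replicates 1 and 2 and low in WT replicate 3, MUC5AC is lowest in WT replicate 1, and MUC13 is lower in all IRF1-KO pools.

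RefSeq (GRCh38.p14) promoter windows, from 250 bases before to 50 after a start site, were at hand for 7 of the 10 genes in 9 windows. Those of MUC1 and MUC4, the closest pair, and of MUC13 are shown from 5′ to 3′ in the direction of transcription. Both strands were searched for the interferon-stimulated response element core (a pair of GAAA half-sites with 2 bases between them), the gamma-activated site TTCNNNGAA, the TATA box TATAAA, the GC box GGGCGG and the AP-1 site TGANTCA. Every match is in capitals.
MUC1, chr1:155192866-155193165, minus strand: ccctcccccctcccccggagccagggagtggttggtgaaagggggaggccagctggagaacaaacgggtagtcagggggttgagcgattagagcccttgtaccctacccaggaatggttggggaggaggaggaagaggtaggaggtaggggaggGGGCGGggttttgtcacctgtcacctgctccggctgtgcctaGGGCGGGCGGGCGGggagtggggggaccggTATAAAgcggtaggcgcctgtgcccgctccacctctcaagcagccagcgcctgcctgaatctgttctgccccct
MUC4, chr3:195811880-195812179, minus strand: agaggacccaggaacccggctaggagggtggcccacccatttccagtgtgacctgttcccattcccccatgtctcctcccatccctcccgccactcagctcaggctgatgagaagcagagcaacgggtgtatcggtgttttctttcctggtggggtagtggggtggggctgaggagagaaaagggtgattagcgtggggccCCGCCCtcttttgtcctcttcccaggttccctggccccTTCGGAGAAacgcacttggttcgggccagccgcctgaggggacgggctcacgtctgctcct
MUC13, chr3:124934702-124935001, minus strand: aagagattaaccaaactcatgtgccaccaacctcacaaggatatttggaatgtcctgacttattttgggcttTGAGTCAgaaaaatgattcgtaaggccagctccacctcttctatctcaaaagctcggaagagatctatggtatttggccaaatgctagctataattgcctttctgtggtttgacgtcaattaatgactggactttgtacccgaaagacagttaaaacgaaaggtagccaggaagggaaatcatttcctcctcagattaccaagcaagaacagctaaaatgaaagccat

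The MUC1 window held a TATA box that begins 24 bases before the start site and 4 GC boxes, of which 3 overlap. The MUC4 window held a gamma-activated site letter match that begins 11 bases before the start site, and a GC box on the opposite strand. The MUC13 window held an AP-1 match and none of the other motifs. An AP-1 match also lay in the windows of MUC2 and MUC17 and in the MUC16 window chr19:9010360-9010659. The MUC13 start site used by RefSeq lies inside the gene as the count table bounds it. Both MUC16 windows (chr19:9010360-9010659 and chr19:9065702-9066001, minus strand) lie upstream of the counted gene, which begins at 8981342. The start of MUC16 as counted was therefore not searched. No window of the 7 genes held the interferon-stimulated response element core. That core was found in 3.18% of 21449 promoter windows of genes in the count table, the gamma-activated site in 6.82%, the TATA box in 9.43%, the AP-1 site in 6.15% and the GC box in 56.8%. MUC5AC, MUC5B and MUC20 were not searched.

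Genes of the wider mucin pathway were read from the same test. Polypeptide GalNAc transferases attach the first sugar to serine and threonine. Of 20 in the list 13 were tested, and 0 passed the edgeR threshold. Negative values were found for 10 of the 13, against 53.3% of all tested genes, and the median of the list was −0.09. At an unadjusted p of 0.05, 3 were lower, against 3.75% of all tested genes. GALNT14 had 33.1, 34.3 and 34.6 CPM in IRF1-KO replicates 1 to 3 and 48.6, 50.7 and 42.0 CPM in WT replicates 1 to 3, without overlap (log2 fold change −0.47 ± 0.12 SE; edgeR adjusted p = 0.213). GALNT12 had 21.8, 16.8 and 21.9 CPM in IRF1-KO and 29.8, 34.3 and 27.8 CPM in WT, again without overlap (−0.60 ± 0.15 SE; edgeR adjusted p = 0.230). DESeq2 called both, at adjusted p of 0.0456 and 0.0481, against 0.915% of genes called lower in that test. GALNT5 had a log2 fold change of −0.69 ± 0.23 (SE; edgeR adjusted p = 0.389), with overlapping groups. In the list 2 genes were lower and 0 higher without overlap, against 6.75% and 8.03% of all tested genes.

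The enzymes that extend these sugars had 18 of 22 genes tested, 0 called by edgeR or DESeq2 and 0 at an unadjusted p of 0.05, with a median log2 fold change of −0.13. The sialyltransferase ST3GAL2 stood at 0.38 ± 0.20 (SE), GCNT4, which branches the sugar core, at −0.46 ± 0.25, and B3GNT3, which elongates it, at −0.42 ± 0.24. Of these only GCNT4 had groups without overlap. In the list 1 gene was higher and 1 lower without overlap, against 8.03% and 6.75% of all tested genes. Of 20 genes of mucin folding, packaging and secretion 16 were tested, with 0 called by edgeR or DESeq2, 1 higher at an unadjusted p of 0.05 (5.39% of all tested genes) and a median of −0.17. UNC13D, which primes secretory granules, had 138, 130 and 136 CPM in IRF1-KO replicates 1 to 3 and 101, 107 and 116 CPM in WT replicates 1 to 3, without overlap (0.32 ± 0.10 SE; edgeR adjusted p = 0.350). RAB27A and RAB3D, granule-bound GTPases, stood at −0.27 ± 0.13 and −0.72 ± 0.52. RAB27A was lower in IRF1-KO, also without overlap, and RAB3D overlapped. In the list 1 gene was higher and 1 lower without overlap, against 8.03% and 6.75% of all tested genes.

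Of 23 transcription factors tied to mucin genes 21 were tested, with 0 called by edgeR, 4 lower and 0 higher at an unadjusted p of 0.05 (3.75% and 5.39% of all tested genes), and a median log2 fold change of −0.14. HNF4A, an endodermal regulator, had 13.0, 20.7 and 18.5 CPM in IRF1-KO and 25.8, 22.2 and 33.4 CPM in WT (log2 fold change −0.64 ± 0.22 SE; edgeR adjusted p = 0.404). STAT3, which relays cytokine signals, stood at −0.28 ± 0.10 (SE; edgeR adjusted p = 0.433). HNF4A and STAT3 were both lower without overlap. In the list 4 genes were lower and 1 higher without overlap, against 6.75% and 8.03% of all tested genes.

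Binding partners and sheddases of transmembrane mucins had all 13 genes tested, 0 called by edgeR or DESeq2 and 0 at an unadjusted p of 0.05, with a median log2 fold change of −0.07. CTNNB1, which encodes beta-catenin, stood at 0.23 ± 0.11 (SE), the sheddase ADAM10 at −0.34 ± 0.17, and SOS1, a guanine exchange factor for RAS, at −0.27 ± 0.16. In the list only CTNNB1 had groups without overlap, higher in IRF1-KO, against 8.03% higher of all tested genes. Of 14 further mucin and mucin-like genes 13 had a row and 5 were tested, with 0 called by edgeR or DESeq2 and 0 at an unadjusted p of 0.05. The sialomucin CD164 was at 0.05 ± 0.10 (SE), with 324, 314 and 338 CPM in IRF1-KO and 298, 336 and 310 CPM in WT, so its pools differed little. The adhesion molecule MCAM, also known as MUC18, had 70.1, 89.0 and 21.2 CPM in IRF1-KO and 22.1, 53.7 and 119 CPM in WT (−0.11 ± 0.69), and OVGP1 was at 0.24 ± 0.39. MUC6, a gel-forming mucin beside MUC2, had 9, 22 and 24 counts in IRF1-KO and 17, 18 and 9 counts in WT. MUC7 and MUCL1 had no count in any library.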

How the data were processed

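RNA of 6 libraries, 3 IRF1-KO and 3 WT clone pools, was poly(A)-selected with an Illumina TruSeq kit per the labels' protocols. The authors deposited raw counts per gene, made with featureCounts 0.6.1 on GRCh38 (hg38) per the submitters' processing notes, which also name edgeR 3.2.2. Aligner, annotation and strand setting were not stated. The table also gives an exon length in bases for each gene, used for levels per kilobase. Symbols of 19342 of 19402 genes came from a table of current names and the rest from GENCODE 29 where present. No count column lacked a sample. Replicates differed by more than sampling noise (chi-square per degree of freedom 25.8 to 55.0).

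The main test used edgeR 4.0.16 in R 4.3.3. Genes kept by filterByExpr were scaled by TMM, fitted with robust dispersion and tested with the two-sided quasi-likelihood F test, with Benjamini-Hochberg adjustment over 13388 genes and a threshold of 0.05. The SE is that implied by the F statistic. Log2 CPM used a prior count of 2. The test was checked on simulated data with the same dispersion for every gene and both groups. That check does not cover genes whose spread differs between groups, such as MUC5B. Alternatives were RLE factors, no filter, a filter at 1 CPM in 3 libraries, DESeq2 1.42.0 (all genes, own size factors), limma-voom (limma 3.58.1), a replicate block, a GC correction (natural spline with 5 degrees of freedom per library, on the longest coding transcript in GENCODE 29), both together, and each library left out. The labels do not say whether pools were grown apart, so a p-value covers only the spread among these pools, which may be technical. The length of a repeat unit was the shortest in-frame lag, up to 600 bases, with close to the most windows matching at 90% of bases. Shorter and less exact repeats within a unit are thus not listed. Named were the 10 mucins, IRF1, up to 3 members of each list with the smallest p, and the 3 genes with the profile nearest to MUC13, the mucin with the smallest p, and to MUC1, the most abundant per length. Some genes of these lists are not reported here. The members, lists and tests were chosen with earlier results of these data known.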

Additional observations from a re-analysis of the deposited data

How the results depend on the processing

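Over all tested genes 17 were called with edgeR. The count was 31 with no filter on low counts, 344 with DESeq2, 31 with the replicate block, 11 with the GC correction and replicate block together, and 3 to 91 with 1 library left out. The number of mucin genes called was 0 with all 6 libraries, 2 with DESeq2 (MUC13 and MUC16), 0 to 1 with 1 library left out (MUC5AC without WT replicate 3) and 0 in the other alternatives. MUC5B reversed to 0.16 with limma-voom and to 0.63 without WT replicate 3 (−1.09 to 0.63 with 1 library left out), and the other 7 tested mucin genes kept their direction in all 14 alternatives. The cause was not tested. The replicate numbers were not taken as pairs: deviations of same-numbered libraries correlated at −0.02, 0.25 and 0.06 over genes, and no mucin gene was called with the replicate block, where MUC20 was at −0.65 and MUC5B at −0.13. Depth limited MUC2, MUC3A, MUC13 and MUC17, whose libraries held at most 81 counts, and MUC5B, which had 5 counts in WT replicate 1.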
